A study of Mus musculus with 2 samples.

Results

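The cells described here are 74 basophil-like cells of the library labelled RUNX1 WT. They were chosen by a gate on measured values: among barcodes with at least 500 detected genes and at most 10% of UMIs (unique molecular identifiers, each standing for 1 captured RNA molecule) from mitochondrially encoded genes, a cell was gated when it held at least 10 UMIs of Prss34 and Mcpt8 together. The gate took 74 of 9472 kept WT cells, a share of 0.781% (exact Clopper-Pearson 95% interval 0.614% to 0.98%), out of 20241 kept cells in the series. In the library labelled RUNX1 KO it took 1 of 10769 kept cells (0.00929%, 0.000235% to 0.0517%), a cell with 13 UMIs of the gate genes.

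The libraries came from mouse bone marrow cells sorted as LSK CD150+, that is negative for lineage antigens and positive for Kit, Sca-1 and CD150, a phenotype used to enrich haematopoietic stem cells. All mice belonged to the Runx1 F/F Mx1-Cre model, in which loxP sites flank a part of Runx1 and interferon signalling switches on the recombinase. There was 1 library of WT mice and 1 of KO mice, and the number, age and sex of the animals and any interferon inducer are not given in the sources used here. The question of the study was how the composition of these sorted cells differs between genotypes. Apart from the level of Runx1 and the totals of each library, every comparison below is between cells of the WT library. None has a replicate check, and no test was made. Intervals are exact 95% intervals that cover counting error only.

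Basophils are rare granulocytes that mature in the bone marrow under interleukin-3 and carry the high-affinity IgE receptor FcεRI, built of an alpha chain, a beta chain and gamma chains. When IgE on that receptor is crosslinked they release histamine from granules, make leukotrienes and secrete interleukin-4 and chemokines. They share the receptor, histamine synthesis and the transcription factor GATA2 with mast cells, while Prss34 and Mcpt8 encode serine proteases of mouse basophil granules (mouse mast cell proteases mMCP-11 and mMCP-8).

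The promoters of the 2 gate genes and of Ms4a2 and Cd200r3, receptor genes among the 15 highest ratios named below, are shown because the cells also held more transcripts of GATA2 and RUNX1, whose families bind the motifs marked. Ms4a2 and Cd200r3 were picked after the sequences were seen, as promoters with more than 1 GATAA. Each sequence is the 250 bases before the RefSeq transcript start on build GRCm38.p6, in gene direction 5′ to 3′. Capitals mark GATAA (or TTATC on the other strand) and TGTGGT (or ACCACA). The windows are chr17:25298144-25298393 on the plus strand for Prss34, chr14:56085198-56085447 on the minus strand for Mcpt8, chr19:11623720-11623969 on the minus strand for Ms4a2 and chr16:44943428-44943677 on the plus strand for Cd200r3.
Prss34: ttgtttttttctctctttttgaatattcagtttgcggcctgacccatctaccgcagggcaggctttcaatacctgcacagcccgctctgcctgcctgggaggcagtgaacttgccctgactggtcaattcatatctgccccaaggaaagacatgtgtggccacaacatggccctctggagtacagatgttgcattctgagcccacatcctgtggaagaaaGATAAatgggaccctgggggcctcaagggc
Mcpt8: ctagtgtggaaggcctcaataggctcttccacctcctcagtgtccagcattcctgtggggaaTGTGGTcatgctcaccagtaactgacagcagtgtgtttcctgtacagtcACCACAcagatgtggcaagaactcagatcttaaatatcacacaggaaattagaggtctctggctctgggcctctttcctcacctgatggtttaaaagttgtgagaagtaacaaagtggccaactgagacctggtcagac
Ms4a2: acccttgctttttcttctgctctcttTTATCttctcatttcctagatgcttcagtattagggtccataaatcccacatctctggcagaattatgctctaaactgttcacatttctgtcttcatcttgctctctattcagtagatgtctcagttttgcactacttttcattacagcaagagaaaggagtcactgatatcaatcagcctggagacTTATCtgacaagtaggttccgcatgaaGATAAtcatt
Cd200r3: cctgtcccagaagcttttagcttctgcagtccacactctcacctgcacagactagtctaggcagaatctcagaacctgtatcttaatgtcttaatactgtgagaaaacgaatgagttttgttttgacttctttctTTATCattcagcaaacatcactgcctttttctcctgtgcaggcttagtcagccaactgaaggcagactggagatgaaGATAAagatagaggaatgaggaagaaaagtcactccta

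The Prss34 window held 1 GATAA, which began 30 bases before the start (position -30). The Mcpt8 window held no GATAA and 2 copies of TGTGGT, at positions -188 and -139. Ms4a2 had GATAA at -224, -37 and -10, and Cd200r3 had it at -115 and -38. Of the 2 gate genes and those 15 genes, 14 had a promoter in the RefSeq table, Cyp11a1 with 2, and Gpr34, Cdh1 and Alox15 were not matched. Over 300 bases (250 before the start and 50 after), 8 of these 15 promoters (53.3%) held GATAA on either strand, beside 25.4% of the 32851 promoters in the table. TGTGGT was in 7 (46.7%), beside 16.8%, and TTGCNNAA, a motif of C/EBP factors (or TTNNGCAA on the other strand), in 3 (20%), beside 10.8%. Each motif was counted by itself, so matches of different motifs may overlap. A match is a string of letters and was not tested as a binding site.

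The gate separated a small set of cells with many UMIs of both proteases from cells with almost none. Among the 9398 other kept WT cells, 8667 had 0 UMIs of Prss34 and Mcpt8, 631 had 1, 86 had 2 to 4 and 14 had 5 to 9. The gated cells held from 11 to 1066 UMIs of the 2 genes, with a median of 290, and 51 of the 74 held at least 100. These UMIs made up 0.0558% to 11.5% of a gated cell's RNA, with a median of 3.77%. Of all Prss34 UMIs in kept WT cells 97.6% lay in the gated cells (11977, beside 291 elsewhere), and of Mcpt8 UMIs 94.8% (11585, beside 634). Every gated cell had Mcpt8, and 5 had no Prss34. Across the 74 cells the 2 genes followed each other, with a Spearman correlation of 0.90 in UMIs per 10000; the points share 1 library and, in each cell, the total. These values chose the cells and are given as a description.

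**Figure D1:**
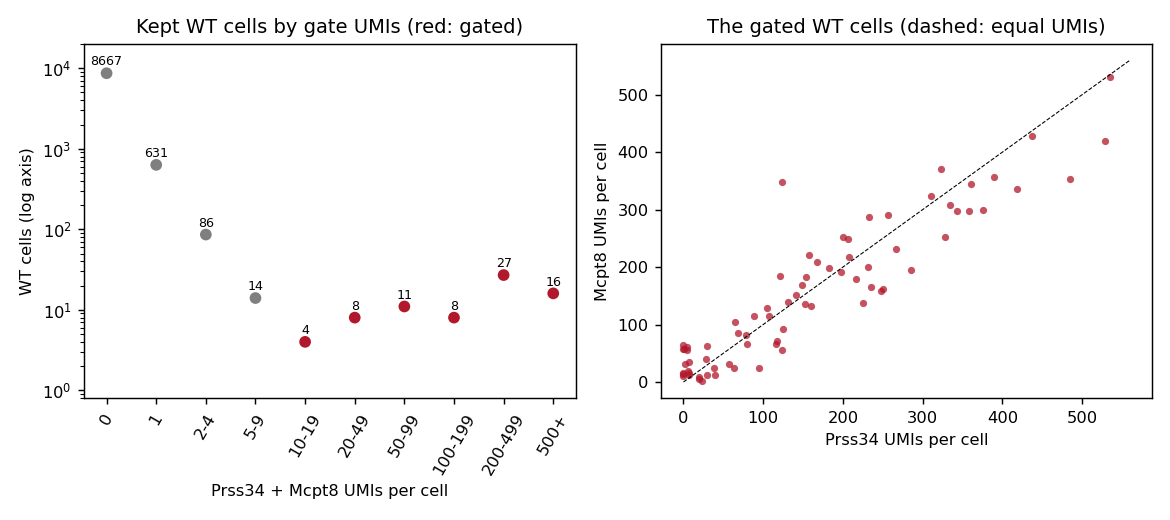
Left, kept WT cells (log axis) by their UMIs of Prss34 and Mcpt8 together, with the gated classes in red. Right, Mcpt8 against Prss34 UMIs in the 74 gated cells, with the dashed line at equal UMIs; there are 8667 cells at 0 UMIs, 4 at 10 to 19 and 27 at 200 to 499, and cells with more Prss34 have more Mcpt8.

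Near the threshold the cells were mixed. The gated cell with the fewest gate UMIs, 11, was shallow at 2097 UMIs in all and held Fcer1a (4 UMIs) and Cd200r3 (3). The next, with 14 and 15, were deep at 17145 and 26870 UMIs, had no Fcer1a and carried 115 and 55 UMIs of Ctsg, the granule protease cathepsin G of myeloid progenitors. Just outside, the cell with 9 had 17 UMIs of Ms4a2 and none of Fcer1a, 1 cell with 8 had 7 UMIs of Fcer1a in 2288, and 1 cell with 7 had 109 UMIs of Ctsg in 21963. Both kinds of cell lay on both sides of the threshold.

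The gated cells were shallower than the rest. They had 1649 to 38270 UMIs with a median of 7149, and a median of 2258 genes. The other WT cells had a median of 9902 UMIs and 3040 genes. Mitochondrial UMIs took 1.64% to 6.96% of a gated cell (median 4.38%), beside a median of 4.95% elsewhere. The doublet caller Scrublet marked 4 gated cells (5.41%), beside 610 of all kept WT cells (6.44%). Of 39 barcodes found in both libraries none was gated. A Y-linked UMI was seen in 43 gated cells (58.1%) and 6663 other WT cells (70.9%), and an Xist UMI in 0 and 34. Runx1, the targeted gene, stood at 104 CPM (UMIs per 1000000) in the WT library and 196 in the KO-labelled one; counts from the 3′ end of transcripts do not check the removal of an internal part of a gene.

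Basophil markers other than the gate genes were high, and so were markers of granulocyte and monocyte progenitors. All 13 basophil markers had UMIs in the gated cells and 10 reached 50 CPM and were at least 2-fold higher than in other WT cells. Their summed level was 7786 against 509 CPM. Each gated cell had 2 to 12 of the 13 (median 9), and 71 of 74 had at least 6. Of the 9398 other WT cells 84 had at least 6, and their median was 2. The 6 mast cell markers Tpsb2, Tpsab1, Cma1, Mcpt4, Mrgprb2 and Mrgprb1, which encode tryptases, chymases and mast cell receptors, had 0 UMIs in the gated cells; 0 of 638953 UMIs allows up to 3 per gene. Mature neutrophil markers (S100a8, S100a9, Camp, Ngp, Ltf) summed to 3.13 CPM against 110 in other WT cells, with S100a9, Ngp and Ltf at 0. Markers of granulocyte and monocyte progenitors (Mpo, Elane, Prtn3, Ctsg, Ms4a3) were high, at 8170 against 1641 CPM in sum and present in 68 of the 74 cells. Eosinophil markers summed to 3357 against 32.1 CPM, though 69 of the 74 cells had no UMI of them, and monocyte markers to 365 against 175. Megakaryocyte markers summed to 239 against 1765 CPM, erythroid markers to 106 against 730, stem cell markers to 87.6 against 239 and lymphoid markers to 34.4 against 270.

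Across genes, UMIs were summed over the gated cells and over the other WT cells and set against each total as CPM. Of 3294 genes that reached 50 CPM in either sum, 282 (8.56%) were at least 2-fold higher in the gated cells and 205 (6.22%) at least 2-fold lower, and the median log2 ratio was -0.18. With TMM scaling, which raised every ratio by 0.16 on the log2 scale (factor ratio -0.16), 364 were higher and 145 lower. These are counts between groups of cells picked for 2 of the genes, and they are the background for the lists that follow. The 15 highest ratios by the naming rule were those of Cd200r3, Alox15, Cdh1, Sytl3, Ccl3, Rnase12, Lilr4b, Cyp11a1, Gpr34, Ccr1, Ms4a2, Cyp4f18, Fcer1a, Cpa3 and Atp1b1, from 1454-fold down to 71.2-fold. The 15 lowest included those of Igkc, Pf4, Cavin2, Cd74, Ptgs1, Slc14a1, Ighm, Mef2c, Nrgn, Gp9, Zfpm1, Ppic, Smim5 and Stard10, from 62.9-fold to 7.13-fold lower. Lilr4b, Cyp4f18 and Igkc belong to families with close copies, so their counts depend on how shared reads were assigned.

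**Figure D2:**
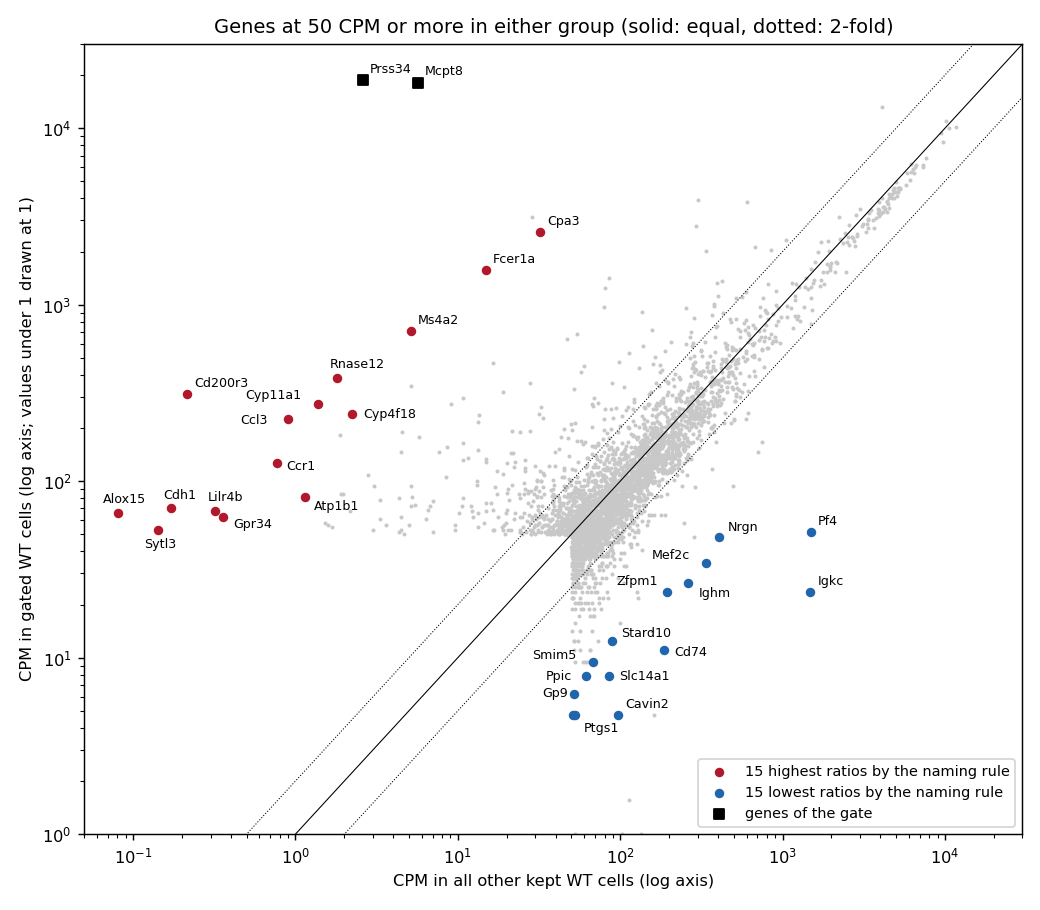
Summed CPM in the 74 gated cells against the 9398 other WT cells for genes that reached 50 CPM in either (both axes log), with the 15 highest ratios in red, the 15 lowest in blue (not all labelled) and the 2 gate genes as black squares. Most genes lie between the dotted 2-fold lines; Fcer1a (1571 against 14.8 CPM) and Cpa3 (2579 against 31.9 CPM) stand far above them, and Pf4 (51.6 against 1491 CPM) far below.

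The IgE receptor was transcribed in nearly every gated cell. Fcer1a, the IgE-binding alpha chain (chromosome 1, 173221284 to 173227214 on the minus strand, build GRCm38), had 0 to 46.4 UMIs per 10000 in a cell, with a median of 19.2. Its summed level was 1571 against 14.8 CPM, 106-fold higher (98.3 to 115). It was seen in 70 of 74 gated cells and in 9.41% of other WT cells, so the groups overlapped. With each cell thinned to 3000 UMIs, which leaves 63 gated cells, it was seen in 88.9% (78.4% to 95.4%). For comparison, it was seen in 2.15% of the 466 WT cells rich in Elane, Prtn3 and Ctsg and in 2.56% of the 1483 rich in Pf4. Their median depths were 17340 and 15536 UMIs before thinning. Whether these cells lack Fcer1a was not tested.

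Ms4a2, the beta chain that amplifies the receptor's signal, had 0 to 32.3 UMIs per 10000 with a median of 7.5. Its level was 707 against 5.12 CPM, 138-fold higher (122 to 156), and it too was seen in 70 gated cells, against 2.94% of others. Fcer1g, the gamma chain shared with other Fc receptors, was seen in all 74 gated cells at 1.12 to 48.2 UMIs per 10000 (median 15.5). It stood at 1249 against 80.6 CPM, 15.5-fold higher (14.4 to 16.7). All 3 chains were seen together in 69 cells. The 3 gated cells with neither Fcer1a nor Ms4a2 were the 3 richest in Elane, described below.

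Other surface genes of the list for IgE receptor and basophil surface were mostly higher. Of 16 members at 50 CPM, 13 (81.2%) were at least 2-fold higher and none lower, and the median log2 ratio was 2.55. Cd200r3, an activating receptor used to mark mouse basophils (chromosome 16, 44943678 to 44981380 on the plus strand), had 0 to 34.8 UMIs per 10000 with a median of 3.35. It had 199 UMIs in 53 gated cells and 24 UMIs in all 9398 others, that is 311 against 0.214 CPM, 1454-fold higher (949 to 2323). With each cell weighted equally its log2 ratio was 9.25 in place of 10.51. Cd63, a granule membrane protein that reaches the surface when basophils degranulate, was in all 74 cells at 2780 against 294 CPM. The interleukin-3 receptor genes Il3ra (189 against 24.1 CPM, 7.84-fold) and Csf2rb (157 against 8.63 CPM, 18.1-fold) were both higher, and Csf2ra, the alpha chain of the GM-CSF receptor, was at 53.2 against 47.0 CPM.

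Granule contents followed the same side. Cpa3, carboxypeptidase A3, had 0 to 86.7 UMIs per 10000 with a median of 24.6 and stood at 2579 against 31.9 CPM, 80.8-fold higher (76.1 to 85.6). Only Cpa3 and Ctsg of the 20 listed granule protease genes, which did not include the gate genes, reached 50 CPM. Hdc, the enzyme that makes histamine, had 0 to 47.4 UMIs per 10000 (median 3.19), and 68 gated cells had it. It stood at 344 against 5.11 CPM, 67.4-fold higher (57.5 to 78.9). Slc18a2, the vesicular transporter that loads histamine, was at 64.2 against 41.8 CPM, and Srgn, the proteoglycan core of granules, at 2315 against 1047 CPM.

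Of the 11 genes for histamine, proteoglycan and eicosanoid synthesis at 50 CPM, 7 (63.6%) were at least 2-fold higher and 1 (9.09%) lower, with a median log2 ratio of 1.93. The leukotriene genes Alox5 (189 against 4.54 CPM, 41.7-fold) and Alox5ap (714 against 158 CPM, 4.51-fold) were among the higher ones, as was Alox15, a 15-lipoxygenase, at 65.7 against 0.0803 CPM. Lta4h, which makes leukotriene B4, was at 72.0 against 63.5 CPM. Ptgs1, the prostaglandin-synthesis enzyme cyclooxygenase 1, was the lower member, at 4.70 against 52.4 CPM. Cyp11a1, the side-chain cleavage enzyme of steroid synthesis, was seen in 61 gated cells at 272 against 1.37 CPM, 198-fold higher (159 to 248).

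All 6 cytokine and chemokine genes at 50 CPM were at least 2-fold higher, with a median log2 ratio of 4.56. They reached 50 CPM in the gated cells only, so their side follows from the floor and is no result about the list. Other listed genes, such as Il13, Il3, Il5 and Areg, had 0 UMIs in the gated cells. Ccl3, a chemokine for monocytes and granulocytes, was at 225 against 0.893 CPM, 252-fold higher (194 to 329), but in 29 of 74 cells. Ccl9 was in 43 cells at 319 against 18.9 CPM, Ccl4 in 15 at 73.6 against 5.42 CPM, and Csf1, which supports macrophages, in 35 at 84.5 against 1.96 CPM. Ccl6 was at 147 against 4.45 CPM and came from 8 cells; thinned to 3000 UMIs its log2 ratio was 3.28 in place of 5.05. Il4 lay under 50 CPM, at 17.2 against 0.616 CPM, with 11 UMIs in 11 cells. A UMI of Ccl3, Ccl4, Ccl6 or Ccl9 was seen in 53 of the 74 cells.

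Downstream of the receptor the differences were fewer. Of 12 genes of FcεRI signalling and exocytosis at 50 CPM, 3 (25%) were higher, 1 (8.33%) was lower and 8 lay between, with a median log2 ratio of 0.53. The higher ones were Lat2 (263 against 32.5 CPM), an adaptor of the receptor, Stx3 (133 against 14.9 CPM), a SNARE protein of membrane fusion, and Rac2 (618 against 206 CPM), a small GTPase. Rab27b, a GTPase of granule docking, was lower at 9.39 against 52.6 CPM, from 4 gated cells. Syk, the kinase recruited by the gamma chain, was at 39.1 against 62.2 CPM and Btk at 62.6 against 63.4 CPM.

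**Figure D3:**
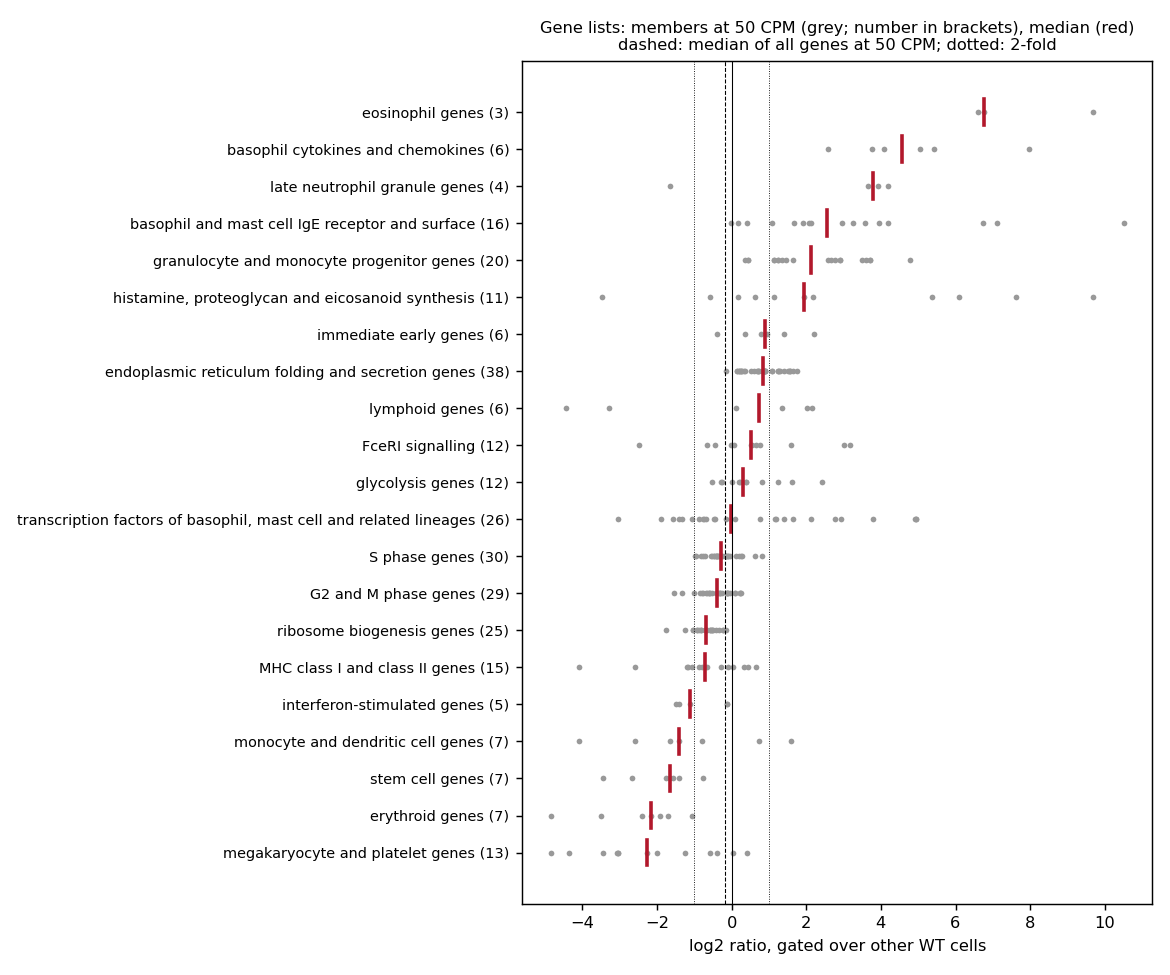
Log2 ratio of gated over other WT cells for each member at 50 CPM (grey points) of the gene lists with at least 3 such members, with the list's median in red, the median of all 3294 genes (-0.18) dashed and 2-fold dotted. The IgE receptor and surface list (median 2.55) and the cytokine list (4.56, genes at 50 CPM in the gated cells only) lie to the right. The erythroid (-2.17) and megakaryocyte lists (-2.26) lie to the left. The eosinophil list rests on Alox15, Prg2 and Prg3, and nearly all UMIs of Prg2 and Prg3 came from 2 cells.

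Transcription factors differed in both directions. Of 26 listed factors at 50 CPM, 11 (42.3%) were at least 2-fold higher and 6 (23.1%) lower, and the median log2 ratio was -0.028 (0.25 with TMM scaling, the other sign). Gata2, required for basophil and mast cell development (chromosome 6, 88193891 to 88207032 on the plus strand), had 0 to 24.9 UMIs per 10000 with a median of 5.85. It was at 507 against 163 CPM, 3.11-fold higher (2.78 to 3.47), and was seen in 68 gated cells and in 71.0% of the others. Cebpa, the C/EBP factor of granulocyte commitment, was in 63 gated cells and 7.45% of others, at 272 against 9.05 CPM, 30.1-fold higher (25.5 to 35.4). GATA2 and C/EBPα are known to act together in basophil commitment.

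Runx1, the gene targeted in the study, was itself higher in the gated cells. It had 0 to 10.5 UMIs per 10000 with a median of 2.31, and stood at 233 against 103 CPM, 2.26-fold higher (1.91 to 2.65), with UMIs in 60 cells. Its relative Runx3 was lower, at 48.5 against 102 CPM. Ets1 (177 against 5.79 CPM, 30.5-fold), Id1 (93.9 against 3.04 CPM, 30.9-fold) and Lmo4 (643 against 46.7 CPM, 13.8-fold) had the other large ratios, and Cebpb, Cebpd, Ikzf2, Spi1 and Klf6 were 2.24-fold to 7.61-fold higher. The lower factors besides Runx3 were Irf8 of monocytes and dendritic cells, Tal1, Lmo2 and Zfpm1 of the erythroid and megakaryocyte lineages and Meis1 of stem cells. Zfpm1, the GATA cofactor FOG-1, was at 23.5 against 194 CPM, and Lmo2 at 243 against 613 CPM.

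Genes of granulocyte and monocyte progenitors were high in the gated cells. Of 20 at 50 CPM, 17 (85.0%) were at least 2-fold higher and none lower, with a median log2 ratio of 2.12. Ctsg had 0 to 94.9 UMIs per 10000 with a median of 35, was seen in 66 cells and stood at 3933 against 302 CPM, 13-fold higher (12.5 to 13.6). Thinned to 3000 UMIs it was seen in 93.7% of gated cells (84.5% to 98.2%), beside 3.1% of the Pf4-rich cells, which are given for comparison. Mpo, myeloperoxidase, was at 2013 against 336 CPM, 5.99-fold higher, with 0 to 72.3 UMIs per 10000 and UMIs in 57 cells. Ms4a3, a membrane protein of these progenitors, was at 972 against 79.6 CPM, and Fcgr3, a low-affinity IgG receptor, at 297 against 10.8 CPM. Elane (470 against 347 CPM, 18 cells) and Prtn3 (783 against 577 CPM), 2 neutrophil elastase-family proteases, lay under 2-fold.

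Of the gated UMIs of Elane 86.0% came from 3 cells, and of those of Prtn3 67.6%. These 3 cells had 149, 81 and 28 UMIs of Elane, 57, 14 and 15 of Mcpt8, and none of Prss34, Fcer1a or Ms4a2. Their depth was 26794, 17145 and 26870 UMIs, and Scrublet marked none of them. They met the gate through Mcpt8 alone and had no UMI of the alpha and beta receptor chains, so the basophil-like name does not rest on them. The gamma chain Fcer1g was seen in all 74 gated cells, these 3 included. Without them the log2 ratio of Elane was -2.23 in place of 0.44 and that of Prtn3 -1.02 in place of 0.44, and 307 genes were higher and 269 lower.

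Eosinophil genes were high through 2 cells. Prg2, the major basic protein of eosinophil granules, summed to 3122 against 28.8 CPM, but 99.8% of its UMIs came from a cell with 1632 and a cell with 360. The first had 76 UMIs of Prg3, 25 of Epx (eosinophil peroxidase), 20 of Prss34, 9 of Mcpt8 and 14 of Fcer1a, and the second 40 of Prg3, 0 of Epx, 0 of Prss34, 65 of Mcpt8 and 6 of Fcer1a. Both therefore held eosinophil granule transcripts and the IgE receptor alpha chain together. Neither was marked by Scrublet, and at 9798 and 8037 UMIs neither was unusually deep. Without them the log2 ratio of Prg2 was -2.57 in place of 6.76. That value rests on few cells on both sides: 2 gated cells with 1 and 2 UMIs, and other WT cells among which single cells held 702, 694 and 691 UMIs. In the rest of the WT library 12 cells had at least 20 UMIs of Prg2, 6 of them with Prg3. These 6 had 0 to 4 UMIs of Mcpt8 and none of Prss34, and a low level of both follows from the gate. Receptor chains were seen in some of them too. The cell with 694 UMIs of Prg2 had 4 of Fcer1a and 2 of Ms4a2, the cell with 189 had 1 of each, and the cell with 702 had 0 of both.

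Late neutrophil genes were divided. Of 4 at 50 CPM, Lcn2 (lipocalin 2, 93.9 against 5.14 CPM), Ltb4r1 (the leukotriene B4 receptor, 164 against 10.8 CPM) and Anxa1 (annexin A1, 684 against 54.2 CPM) were higher and Lyz2 (lysozyme, 117 against 365 CPM) was lower. Other members of the list were near 0: S100a8 and Camp had UMIs in 1 cell each, and S100a9, Ngp and Ltf in none. The list's median of 3.79 over these 4 genes became -1.64 with no floor on the level.

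Transcripts of the antigens used in the sort were lower than in the other WT cells. Kit was seen in 22 of 74 gated cells, at 64.2 against 151 CPM (0.426 of the level elsewhere, 0.305 to 0.578). Thinned to 3000 UMIs it was in 12.7% of gated cells (5.65% to 23.5%) and 37.9% of others; with equal weight per cell its log2 ratio was -2.0 in place of -1.23. Ly6a, which encodes Sca-1, was in 4 cells at 12.5 against 35.6 CPM, and Slamf1, which encodes CD150, in 1 cell at 1.57 against 17.6 CPM. The last 2 rest on few UMIs. Ly6a was at -0.43 in place of -1.51 (log2) under the stricter cell filter. Slamf1 had 0 UMIs in the thinned gated cells. Its thinned log2 ratio of -0.32, in place of -3.49, is therefore only a bound set by 3 counts and does not show a level near that of other cells. Against the Elane, Prtn3 and Ctsg cells the log2 ratio of Kit was -0.42 and that of Ly6a 0.78, the other sign. Kit and Ly6a were seen together in 3 cells, and 51 of the 74 had no UMI of Kit, Ly6a or Slamf1. Transcript counts at this depth do not show whether the surface proteins were present.

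Genes of the megakaryocyte, erythroid and stem cell lists were mostly lower. Of 13 megakaryocyte and platelet genes at 50 CPM, 9 (69.2%) were at least 2-fold lower and none higher, with a median log2 ratio of -2.26. Pf4, platelet factor 4, was in 20 gated cells at 51.6 against 1491 CPM, 28.9-fold lower. Thinned, it was in 11.1% of gated cells (4.59% to 21.6%), beside 13.9% of the Elane, Prtn3 and Ctsg cells. Whether these UMIs were made in the cells or came from RNA of other cells was not tested. With a gate of 5 UMIs its log2 ratio was -1.55 in place of -4.85. Itga2b, which encodes CD41, did not follow the list, at 178 against 176 CPM. Nor were all other lineages lower by every measure. The median of the lymphoid list was 0.74, with 3 of 6 genes at 50 CPM higher and 2 lower. Cd52, a leukocyte surface antigen, was at 362 against 89.5 CPM, but the lymphoid markers summed to 34.4 against 270 CPM. The monocyte markers summed to 365 against 175 CPM, of which Ly6c2 gave 136 from 3 cells. Without the gated Elane-rich cells the log2 ratio of Ly6c2 was -5.55 in place of 0.72. The monocyte and dendritic cell list had a median of -1.42, with 4 of 7 genes at 50 CPM lower and 1 higher.

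All 7 erythroid genes at 50 CPM were at least 2-fold lower (median log2 ratio -2.17), with Hbb-bs at 0 UMIs, at least 28.6-fold lower against a floor of 3 counts over the gated cells. Car1, carbonic anhydrase 1, was at 93.9 against 497 CPM. Of 7 stem cell genes 6 (85.7%) were lower (median -1.65), among them Mecom at 9.39 against 59.3 CPM. The antigen-presentation gene Cd74 was at 11 against 185 CPM, and 5 of 15 MHC genes (33.3%) were lower with none higher. The interferon-stimulated genes had 3 of 5 lower, with Ifitm3 at 225 against 597 CPM, and its relative Ifitm1, a basophil marker here, was higher at 956 against 255 CPM.

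Against WT cells rich in Elane, Prtn3 and Ctsg (at least 20 UMIs of the 3 together, 466 cells), the median of the progenitor list was near level, and that of the IgE receptor and surface list was above 2-fold. Of 3124 genes tested 245 were at least 2-fold higher in the gated cells and 119 lower. The log2 medians of these lists were 0.24 and 1.76. Elane, Prtn3 and Ctsg chose the comparison cells. The log2 ratio of Elane was -3.18 and that of Prtn3 -2.78, while Ctsg was at 3933 against 3646 CPM, Ms4a3 at 972 against 703 CPM and Mpo at 2013 against 3950 CPM. Cpa3 was at 2579 against 67.7 CPM, Hdc at 344 against 45.4, Gata2 at 507 against 40.8 and Cebpa at 272 against 63.1. Fcer1g, at 1249 against 368 CPM, differed less than in the comparison with all other cells. The megakaryocyte and erythroid lists had medians of 0.68 and 0.69, but over another set of members at 50 CPM than in the comparison with all other cells. Single megakaryocyte genes lay on both sides. The log2 ratio was -2.94 for Pf4, -2.14 for Cavin2 and -0.92 for Nrgn, and 1.81 for Itga2b and 2.0 for Cd9. Car1 of the erythroid list, at 0.69, had 60 UMIs in 8 gated cells.

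Another 338 WT cells outside the gate had at least 2 UMIs of Fcer1a. They had Gata2 at 223 CPM, Cpa3 at 112, Ms4a2 at 40.1, Hdc at 14.2 and Cebpa at 10.9 CPM. Cd200r3 was at 1.64 CPM, against 311 CPM in the gated cells, Ctsg at 121 CPM and Pf4 at 791 CPM. Their low level of the gate genes follows from the gate. The 22 cells rich in late neutrophil granule genes had Fcer1a, Cd200r3 and Cyp11a1 at 0 and Elane at 14984 CPM.

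**Figure D4:**
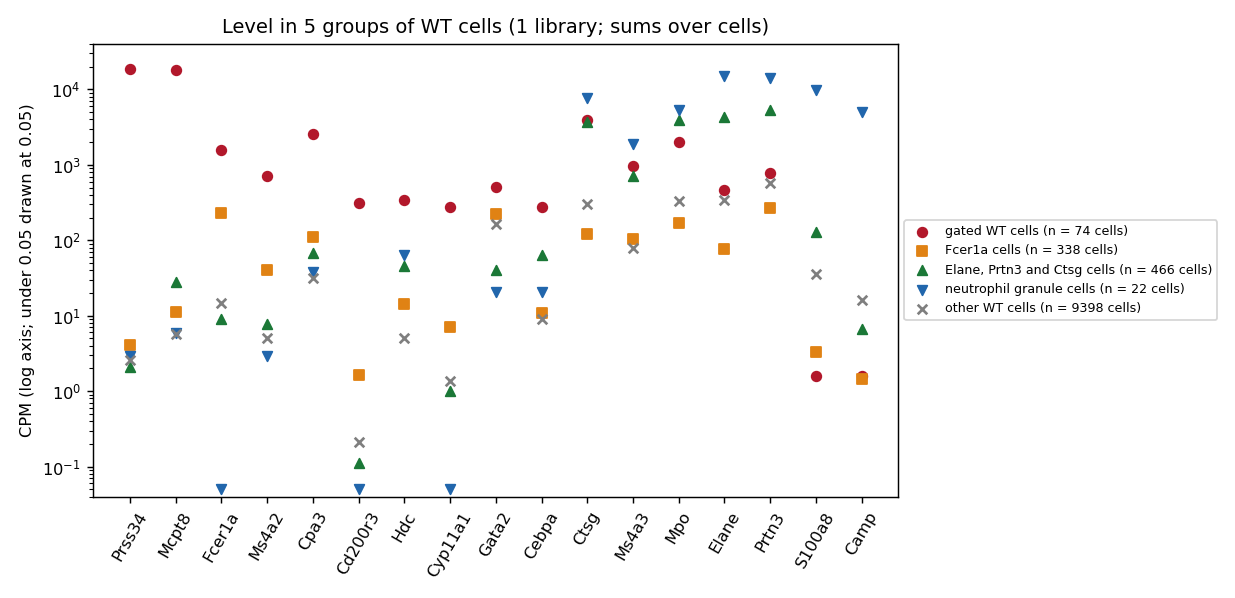
Summed CPM (log axis, values under 0.05 drawn at 0.05) of 17 genes in 5 groups of WT cells of 1 library, with the number of cells in the legend. The gated cells share Ctsg (3933 CPM) and Ms4a3 (972 CPM) with the Elane, Prtn3 and Ctsg cells (3646 and 703 CPM), and are the highest of the 5 groups in Cd200r3 and Cyp11a1; the gate genes are high in them by the rule.

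Among the gated cells many genes differed with the total number of UMIs. The cells were put in 3 ranges of total UMIs, 25 with 1649 to 5200, 25 with 5607 to 9259 and 24 with 9394 to 38270; the ranges were chosen after the data were seen. Depth, cell size and the state of a cell cannot be told apart in these ranges, and mitochondrial UMIs were alike in them, at medians of 4.31%, 4.33% and 4.50%. In the order low, middle and high total, Cd200r3 was at 1087, 412 and 97.7 CPM and Hdc at 1025, 384 and 180 CPM. Ccl3 was at 1112, 245 and 26.4 CPM, seen in 19, 8 and 2 cells, though the deeper cells would show it more readily. Fcer1g was at 2656, 1644 and 761 CPM, and Cebpa at 642, 279 and 190 CPM. Ccl9 was at 1593, 206 and 100 CPM, and Ccl6 at 1075, 39.0 and 0 CPM, with 7 of its 8 cells in the low range. With equal weight per cell the log2 ratio against other WT cells was 7.06 in place of 6.08 for Hdc, 5.22 in place of 4.08 for Ccl9, 4.91 in place of 4.18 for Csf2rb and 5.56 in place of 4.91 for Cebpa. It was lower for Cd200r3 (9.25 in place of 10.51) and Sytl3 (7.94 in place of 8.54).

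Some progenitor genes and the ribosome biogenesis genes ran the other way. Mpo was at 457, 1644 and 2520 CPM, seen in 9, 24 and 24 cells. Elane was at 0, 111 and 740 CPM, the last mostly from the 3 Elane-rich cells, which all lay in the high range. Kit was at 24.7, 27.9 and 89.8 CPM. The ribosome biogenesis genes summed to 2334, 3522 and 6398 CPM. Without the 3 Elane-rich cells, a choice made after the data were seen, the high range stood at 71.5 CPM for Elane, 1930 CPM for Mpo and 5489 CPM for ribosome biogenesis. The progenitor list as a whole was at 12957, 21793 and 20025 CPM, and its members Fcgr3 (581, 373 and 201 CPM) and Rab44 (247, 167 and 122 CPM) were lower at higher totals. Fcer1a (2087, 2162 and 1181 CPM) and Cpa3 (2384, 3912 and 1989 CPM) had no such order, and Ctsg was lowest in the low range (1655, 5255 and 3794 CPM). Runx1 was at 383, 212 and 211 CPM.

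Spearman correlations over the 74 cells describe the same pattern. The summed share of the IgE receptor and surface list had a correlation of -0.73 with total UMIs in the gated cells and -0.22 in the other WT cells. The cytokine list had -0.72, beside 0.073 elsewhere, and the ribosome biogenesis list 0.70, beside 0.43. In each case the points are cells of 1 library, and the total is also the denominator of the share.

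**Figure D5:**
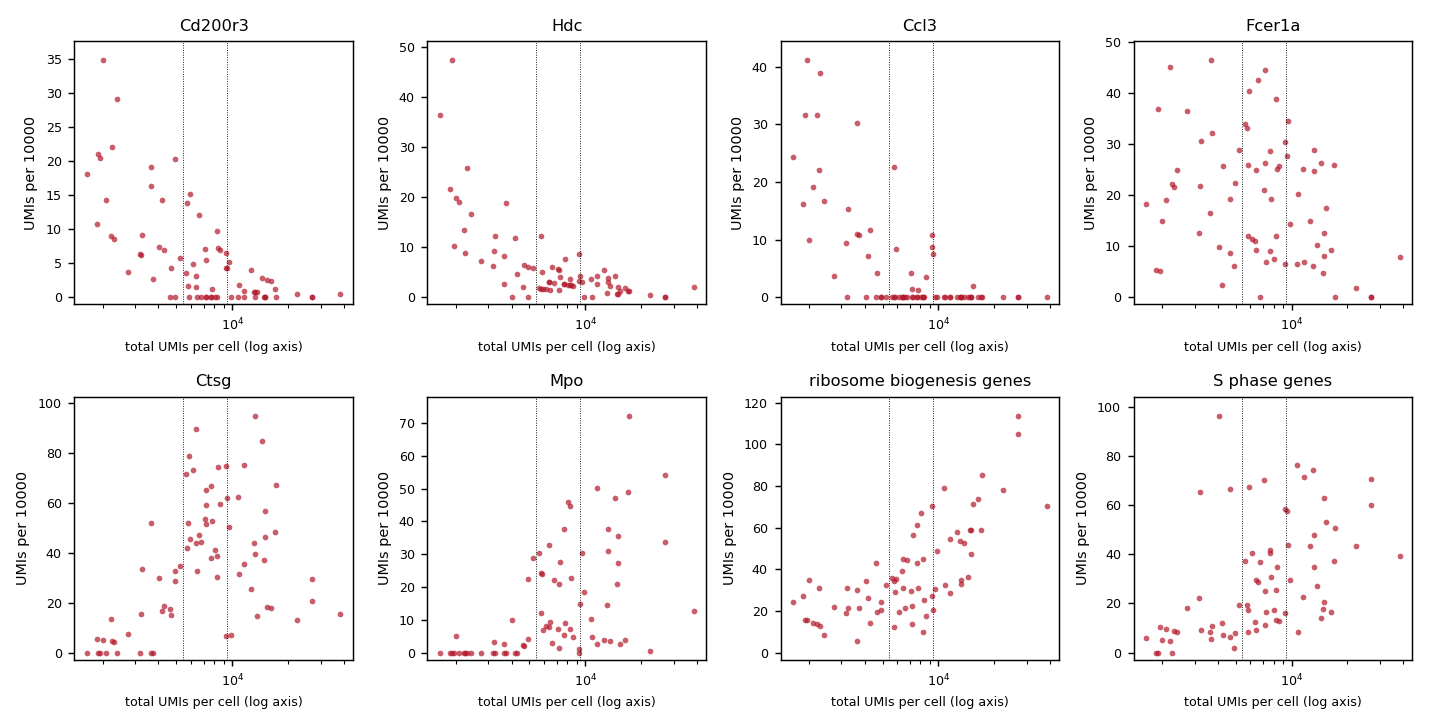
UMIs per 10000 against total UMIs per cell (log axis) in the 74 gated cells for 6 genes and 2 summed lists, each point 1 cell, with dotted lines between the 3 ranges of total UMIs. Cd200r3, Hdc and Ccl3 are highest in the shallow cells (1087, 1025 and 1112 CPM in the low range), and Mpo (2520 CPM in the high range), ribosome biogenesis and S phase genes in the deep ones.

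The cells were also put in 3 ranges of the gate genes (5.58 to 226, 246 to 589 and 597 to 1151 UMIs per 10000). These ranges are made from the values that chose the cells, and the cell's total is the denominator on both sides. Some receptor and granule genes rose over them, while the surface genes Ifitm1 (813, 1213 and 806 CPM) and Csf2ra (68.1, 21.7 and 76.5 CPM) had no such order. Fcer1a was at 590, 1898 and 2850 CPM, Cpa3 at 1215, 2998 and 4414 CPM and Cd200r3 at 114, 260 and 758 CPM from the low to the high range. Elane was at 1071, 73.7 and 0 CPM, Mpo at 2497, 2067 and 1036 CPM, and ribosome biogenesis genes at 6996, 4549 and 2391 CPM. The 3 Elane-rich cells all lay in the low range, and without them it stood at 129 CPM for Elane, 1550 CPM for Mpo, now below the middle range, and 5768 CPM for ribosome biogenesis. Lmo4 was at 726, 689 and 417 CPM. These ranges are ranges of a score and not types of cell.

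Genes of the cell cycle were mostly within 2-fold in the summed CPM, which gives deep cells more weight. Thinned to 3000 UMIs, the log2 ratio was -2.15 in place of -0.95 for Cdca7 and -1.71 in place of -0.82 for Uhrf1. For Aurkb it was -1.91 in place of -0.79. Ckap2l, Hmmr and Cdc20 moved the other way when thinned, to -0.8, -0.31 and -0.17. The counts that follow are of the sums without thinning. None of 30 S phase genes at 50 CPM was 2-fold different either way (median log2 ratio -0.29), and of 29 G2 and M phase genes 2 (6.90%), Ckap2l and Ccnb1, were lower (median -0.39). The spread between cells was wide, from 0 to 96.4 UMIs per 10000 for S phase genes and from 4.71 to 235 for G2 and M phase genes. The median over gated cells was 21.4 per 10000 for S phase genes, beside 35.5 in other WT cells. For G2 and M phase genes it was 20.1, beside 26. Of the 74 cells 26 lay above the median of the other WT cells in S phase genes and 33 in G2 and M phase genes. By range of total UMIs these were 3, 8 and 15 cells for S phase and 5, 11 and 17 for G2 and M phase. Mki67, a marker of cycling cells, was seen in 30 gated cells, of which 20 also had Cd200r3.

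In the summed CPM, part of the genes of protein folding and secretion were higher, and few of those of ribosome assembly were 2-fold lower. Of 38 genes of endoplasmic reticulum folding and secretion at 50 CPM, 13 (34.2%) were at least 2-fold higher and none lower, with a median log2 ratio of 0.85. The chaperones Hsp90b1 (1326 against 396 CPM) and Calr (2119 against 676 CPM) had the largest ratios of them, and Xbp1, the factor that drives secretory capacity, was at 119 against 45.3 CPM. Of 25 ribosome biogenesis genes 4 (16%) were lower and none higher, with a median of -0.68. These sums give deep cells more weight. Cell by cell, the whole list had a median of 31.7 UMIs per 10000 in the gated cells. In the other WT cells the median was 73.1 and the 5th percentile 36.3, and the share rose with total UMIs in both groups. Ncl, nucleolin, was at 779 against 1492 CPM and Nop56 at 133 against 273 CPM. Against the Elane, Prtn3 and Ctsg cells the median of the folding list was 0.21.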

How the data were processed

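The authors deposited UMI counts per gene and barcode for 1 library per genotype, mapped to mm10 by Cell Ranger 2.1.1 (named in the submitters' processing notes); the matrix headers name software version 3.1.0. The libraries held 113732196 (WT) and 120578398 (KO-labelled) UMIs in 9969 and 11398 barcodes, of which 497 and 629 failed the limits of 500 genes and 10% mitochondrial UMIs; none of the WT barcodes left out had 10 gate UMIs. Raw counts were summed over groups of WT cells and scaled to CPM. The 95% intervals are exact, conditional binomial for ratios and Clopper-Pearson for shares; a group at 0 was set to 3 counts. Called means at least 2-fold among genes at 50 CPM in either group. No p-value was computed, since cells of 1 library are not replicates. For shares, cells were thinned to 3000 UMIs, leaving out 11 gated and 144 other WT cells. Doublets were not removed; Scrublet (scanpy 1.11.5, expected rate 8%) was run as a check.

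The rule for naming genes took the 15 highest and the 15 lowest ratios at 50 CPM with a UMI in at least 10% of the cells of the higher group (without gate, ribosomal, mitochondrial, Xist and Y-linked, haemoglobin and unnamed genes), all members at 50 CPM of 5 lists (IgE receptor and surface, proteases, histamine and eicosanoids, cytokines, transcription factors), sort antigens, markers, and at most 6 members of every further list, those with the largest ratios; Btk and Xbp1, list members beyond the rule, were chosen after their values were seen. Some genes that the rule takes are not reported here. The cells and lists were chosen with earlier results of these data known. Positions of all 201 named genes are from GENCODE M21 (GRCm38), matched by ID; promoters are from RefSeq (GRCm38.p6). Alternatives to the gate, filter, scaling (edgeR 4.0.16 TMM), floor and fold were run. The computing steps were tested on simulated data. Python 3.11.15, numpy 2.4.6, scipy 1.17.1, pandas 2.3.3 and matplotlib 3.10.9 were used.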

Additional observations from a re-analysis of the deposited data

How the results depend on the processing

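The number of gated cells was 60 to 88 under the other gates (5, 20 or 50 UMIs together, 10 UMIs of either gene alone, 10 per 10000 UMIs), under a filter of 1000 genes and 5% mitochondrial UMIs, and without Scrublet calls. Those settings left the counts of genes within 1.5 times of 282 higher and 205 lower. The lower count moved to 393 with equal weight per cell, 345 with the total taken without gate, ribosomal and mitochondrial genes, 426 with cells thinned to 3000 UMIs (390 higher) and 119 against the Elane, Prtn3 and Ctsg cells. Both counts moved with the thresholds, to 467 higher and 584 lower at a floor of 20 CPM, 164 and 76 at 100 CPM, 1360 and 1598 with no floor, 480 and 625 at 1.5-fold and 172 and 70 at 3-fold; these follow from the rule for counting. Of 121 named genes past 2-fold at 50 CPM 17 changed sign under any setting. Prg2 did so without its 2 cells, at -2.57 (chosen after the data were seen), and the others against the Elane, Prtn3 and Ctsg cells, where the log2 ratios were Cd74 0.64, H2-Aa 1.06, H2-Q6 0.26, H2-Q7 0.34, Meis1 0.29, Mllt3 0.72, Pdzk1ip1 0.87, Car1 0.69, Car2 0.23, Aqp1 0.70, Mfsd2b 0.45, Cebpd -0.21, Spi1 -0.41, Ms4a6c -0.98, Pgam1 -0.63 and Mpo -0.97. Genes under 50 CPM also changed sign there, such as Ly6a (0.78), Klf1 (0.69), Procr (0.11) and Hba-a1 (1.81). Among lists with a median past 2-fold, the medians that changed sign were those of megakaryocyte (0.68) and erythroid genes (0.69) in that comparison and of late neutrophil genes with no floor (-1.64); the smaller medians of transcription factors, lineage panel antigens, MHC and glycolysis genes changed sign under at least 1 setting. No paired analysis was possible because each genotype had 1 library and the labels give no replicate numbers. Counting error limits low genes: a gene at 0 in the 638953 gated UMIs can be at up to 3 counts.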
